A study of Mus musculus with 4 samples.

Results

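Complement genes were examined in peritoneal macrophages of the mouse after a night in culture with the cytokine TGFb2 (transforming growth factor beta) or with PBS, its vehicle. The set was the C1q chain genes C1qa, C1qb and C1qc together with C2, Cfb, Cfp, Serping1 and C3, and its members were all probe sets paired with exactly 1 of these symbols in the platform annotation. A probe set is a group of short array probes designed against 1 transcript. The rule gave 10 of the 12488 probe sets on the array, for 7 of the 8 genes. C3 was not analysed here. The TGFb2 group held 2 arrays of cells given porcine TGFb2 (5 ng, with no volume stated), and the PBS group held 2 arrays of cells given PBS alone. All cells came from female BALB/c mice aged 6 to 8 weeks that had received 2 ml of 3% thioglycolate, an irritant, into the peritoneal cavity 4 days earlier, and all were kept in serum-free medium. The adherent fraction, more than 95% of it positive for F4/80 according to the labels, was used for RNA. The labels name no separate cultures or animals behind the arrays, and the spread behind each p-value is therefore that of arrays and possibly technical only.

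Complement is a cascade of plasma and tissue proteins that tags particles for uptake and, through its later components, opens membranes. C1q is the recognition part of the classical pathway. It is assembled from the A, B and C chains and binds antibody complexes, dying cells and other surfaces. Macrophages are a main source of C1q, unlike most complement proteins, which come chiefly from the liver. C2 and factor B (Cfb) are related proteases of the enzymes that cleave C3 in the classical and alternative pathways. Properdin (Cfp) stabilises the enzyme of the alternative pathway, and the C1 inhibitor (Serping1) blocks the proteases that C1q activates.

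In the RefSeq gene table for GRCm38.p6, C1qb, C1qc and C1qa lie side by side on mouse chromosome 4, with 0 other genes starting between neighbours. Transcripts of these neighbours rose together, for C1qb in probe set 96020_at only. No promoter of C1qa was listed, so those of C1qb and C1qc are shown. Each runs from 250 bases before to 50 bases after the start site in RefSeq, GRCm38.p6, minus strand, read 5′ to 3′, at chr4:136886151-136886450 for C1qb and chr4:136892865-136893164 for C1qc. Capitals mark every match, on either strand, to the short motifs described after the sequences.
C1qb: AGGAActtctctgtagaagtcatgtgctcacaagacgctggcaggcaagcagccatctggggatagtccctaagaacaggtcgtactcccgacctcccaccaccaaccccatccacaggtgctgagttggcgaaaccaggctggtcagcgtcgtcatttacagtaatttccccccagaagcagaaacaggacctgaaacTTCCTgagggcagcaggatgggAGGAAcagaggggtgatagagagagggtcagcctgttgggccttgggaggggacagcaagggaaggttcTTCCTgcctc
C1qc: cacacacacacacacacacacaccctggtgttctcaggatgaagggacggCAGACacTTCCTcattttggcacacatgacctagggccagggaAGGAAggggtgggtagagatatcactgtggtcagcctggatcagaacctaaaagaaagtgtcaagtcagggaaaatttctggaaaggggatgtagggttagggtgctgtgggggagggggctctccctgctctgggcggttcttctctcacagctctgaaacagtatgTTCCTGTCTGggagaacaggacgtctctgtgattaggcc
The ETS core AGGAA, which the macrophage factor PU.1 reads, had 4 matches in the C1qb promoter and 3 in that of C1qc. It was present in 66.7% of the 32851 promoters of this length in the table. The Smad box CAGAC, read by the Smad proteins of TGF-beta signalling, had 0 matches in C1qb and 2 in C1qc (49.6% of all promoters). No marked matches overlapped, and a match of letters is not a binding site.

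Expression was read as MAS5 signals, a background-corrected intensity per probe set that the authors deposited on a linear scale. Signals of different probe sets are not comparable as levels, so each is compared only across arrays. Differences are TGFb2 minus PBS on log2(signal + 15), which understates the change of dim probe sets, and standard errors (SE), 95% intervals and adjusted p come from limma fitted to all 7453 probe sets above a signal of about 24.0. A probe set passed at an adjusted p under 0.05. No p from permuting 2 against 2 arrays can be below 0.333, so none is given.

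Array medians lay between 40.1 and 45.6 and log2 signals correlated at 0.968 between the TGFb2 arrays and 0.979 between the PBS arrays. Of 12 macrophage markers listed, older symbols included, 9 were on the array and tested, and 0 passed. Their summed signals, by the brightest probe set of each gene and carried mostly by Cd68 and Lyz2, were 18068 and 18594 on the TGFb2 arrays and 16382 and 17378 on the PBS arrays. Of the 9, 5 were higher and 1 lower with TGFb2 without overlap between the groups, where 42.8% of all tested probe sets had none. Adgre1, which encodes F4/80, overlapped, with signals of 470.9 and 747.7 with TGFb2 and 488.1 and 779.9 with PBS. Fcgr1, an Fc receptor, had 480.4 and 315.8 with TGFb2 and 177.6 and 161.5 with PBS. This ratio of 2.35 did not pass (limma adjusted p = 0.066), beside 2.26 for C1qc. A dimmer Fcgr1 probe set, 101793_at, had 240.9 and 173.2 with TGFb2 and 90.1 and 64.4 with PBS. Its ratio of 2.68 did not pass either (limma adjusted p = 0.0539). The ratio was 1.96 for Mertk and 1.65 for Itgam.

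Markers of other cells moved too, some in only 1 of a gene's probe sets. Of 8 neutrophil markers, 4 were tested and S100a8 rose, with signals of 550.6 and 679.2 with TGFb2 and 128.7 and 210.9 with PBS (limma adjusted p = 0.0241), while the granule gene Ngp stayed at or below 7.6 on all 4 arrays. A dimmer probe set of Csf3r, 95807_at, rose as well (limma adjusted p = 0.0148), whereas the brightest did not pass. The neutrophil list summed to 901.3 and 1027 with TGFb2 and 514.1 and 527.3 with PBS, and S100a8 carried most of the TGFb2 sums. The brightest Csf3r probe set, the next largest part there, had 159.9 and 201.5 with TGFb2 and 214.9 and 188 with PBS. S100a9 was not tested and had 28.9 and 5.3 with TGFb2 and 3.4 and 6.1 with PBS. Of 11 fibroblast and mesothelial markers, 8 were tested by their brightest probe sets, the collagen gene Col1a1 rose and decorin (Dcn) fell (limma adjusted p = 0.0219 and 0.0259). The dimmer probe sets of Col1a1 (94305_at) and Col1a2 (101130_at) rose by 2.72 and 1.86 on the log2 scale (limma adjusted p = 0.00176 and 0.0175). That list, by the brightest probe sets, summed to 1717 and 1494 with TGFb2 and 2357 and 1634 with PBS. The lower sums came from Dcn, which had 318.7 and 256.5 with TGFb2 and 1130.5 and 746.8 with PBS. Of the 8 tested, 2 were higher and 2 lower without overlap, where 42.8% of all tested probe sets had none. The eosinophil and mast cell list summed to 85.6 and 61.0 with TGFb2 and 41.5 and 22.6 with PBS, with only Cpa3 tested (50.1 and 34 with TGFb2, 24.7 and 13.1 with PBS, limma adjusted p = 0.39). Of 5 tested B cell markers 0 passed. Ighm was lower with TGFb2 without overlap in its tested probe sets, 93583_s_at and 93584_at (ratios 0.640 and 0.584, limma adjusted p = 0.46 and 0.37). A dimmer Ms4a1 probe set, 99446_at, was also lower without overlap (limma adjusted p = 0.42). The brightest Ms4a1 probe set and those of Cd79a, Cd79b and Pax5 overlapped. The T and NK cell, dendritic cell and hepatocyte lists had 1 tested gene each, which did not pass, and the platelet list had 0, so these lists could show little. In RNA from mixed cells, fewer cells of a type and less RNA per cell cannot be told apart. The part of these other cells in the results on complement was not tested.

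Transcripts of all 3 C1q chains rose with TGFb2. The log2 difference was largest for C1qb, followed by C1qa and C1qc. Among 9 probe sets of this set and 16 of other complement genes tested over all 4 arrays, these 3 alone passed.

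C1qa, the A chain (probe set 98562_at), had signals of 532.3 and 404.3 with TGFb2 and 163 and 171 with PBS. The groups did not overlap, and the dimmer TGFb2 array was 2.36 times the brighter PBS array. Its mean was 468 ± 90.5 with TGFb2 and 167 ± 5.66 with PBS (SD, n = 2 arrays each), 2.80-fold higher. The log2 difference was 1.40 ± 0.19 (SE, limma adjusted p = 0.0241).

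C1qb, the B chain (probe set 96020_at), had signals of 262.4 and 205.1 with TGFb2 and 68.6 and 57.5 with PBS. Both TGFb2 arrays stood at least 2.99 times above either PBS array. Its mean was 234 ± 40.5 with TGFb2 and 63.05 ± 7.85 with PBS (SD, n = 2 arrays each), 3.71-fold higher. The log2 difference was 1.67 ± 0.20 (SE, limma adjusted p = 0.0193), the 30th highest of the 7453 tested.

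C1qc, the C chain (probe set 92223_at), had signals of 691.5 and 529.2 with TGFb2 and 287.7 and 251.8 with PBS. The groups were again separate, with the dimmer TGFb2 array at 1.84 times the brighter PBS array. Its mean was 610 ± 115 with TGFb2 and 269.75 ± 25.4 with PBS (SD, n = 2 arrays each), 2.26-fold higher. The log2 difference was 1.13 ± 0.19 (SE, limma adjusted p = 0.0436), the closest of the 3 to the threshold.

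The 95% intervals of the chains were 0.96 to 1.83 for C1qa, 1.20 to 2.13 for C1qb and 0.69 to 1.56 for C1qc. They share the range from 1.20 to 1.56, and differences between the chains were not tested. In all 3 chains TGFb2 replicate 1 was brighter than replicate 2, by 1.32 times for C1qa, 1.28 times for C1qb and 1.31 times for C1qc. Of the 10 probe sets of the set, 8 were brighter on TGFb2 replicate 1, as were 53.6% of all tested probe sets.

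Another C1qb probe set, 162276_i_at, did not show the rise. Its identifier marks a set with fewer specific probes than standard. It had signals of 73.0 and 45.8 with TGFb2 and 67.8 and 74.6 with PBS, so the groups overlapped. The log2 difference was -0.24 ± 0.24 (SE, limma adjusted p = 0.77), with a 95% interval of -0.80 to 0.33 that lies wholly below the interval of 96020_at. Which of the C1qb probe sets reads the transcript better was not tested.

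**Figure D1:**
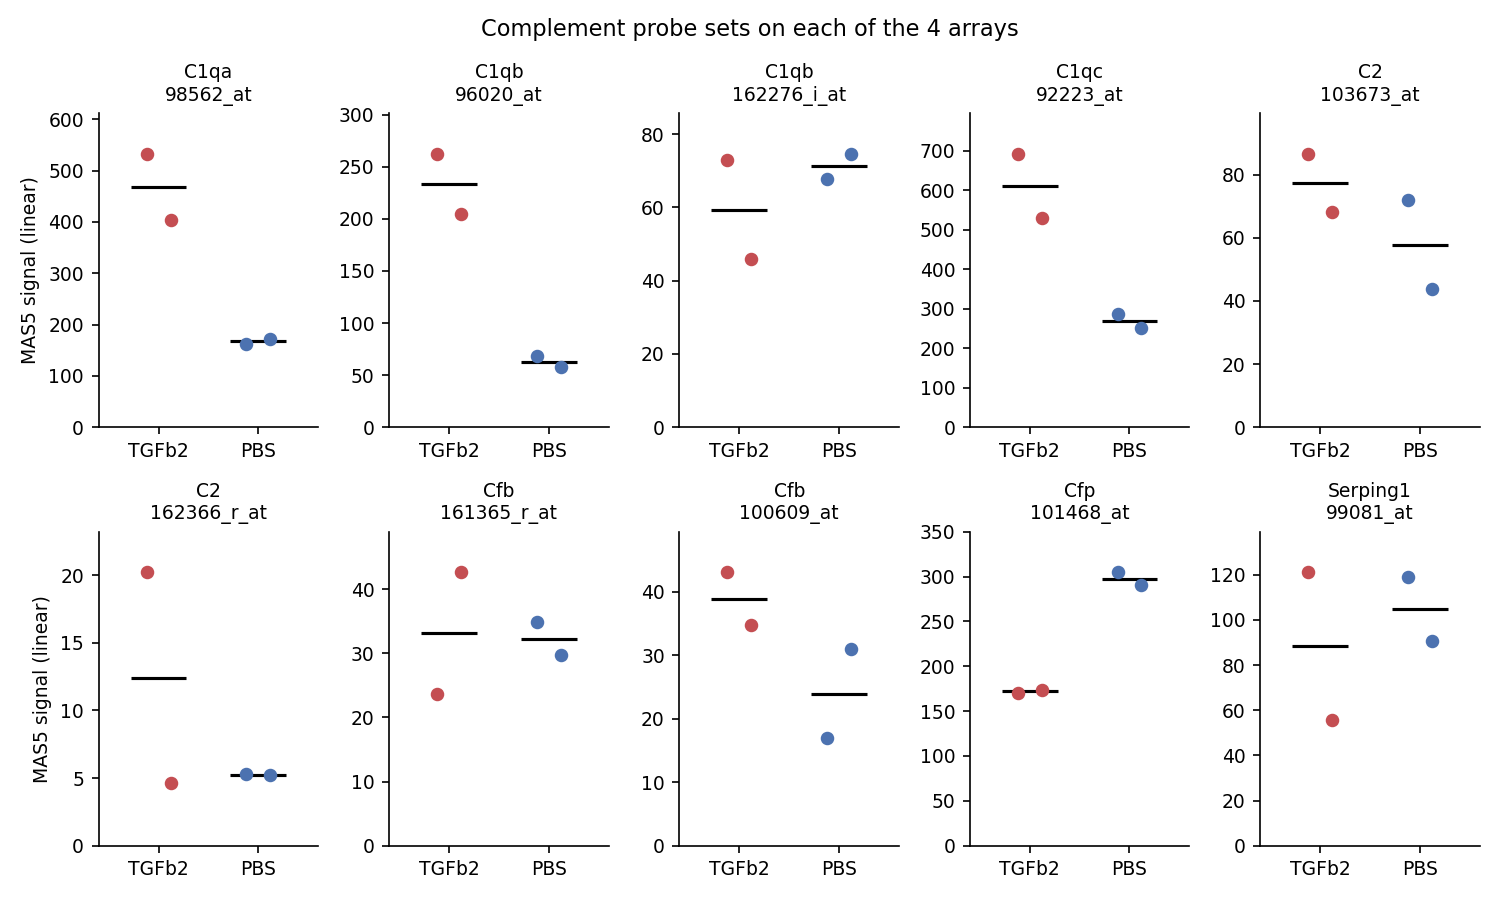
MAS5 signal (linear axis from 0, a separate scale per panel) of each of the 10 probe sets, with 1 point per array, TGFb2 on the left and PBS on the right, and the line at the group mean. The TGFb2 arrays lie above the PBS arrays for C1qa, C1qb 96020_at and C1qc and below them for Cfp, whereas C1qb 162276_i_at overlaps.

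The calls on C1q changed with the arrays used. Of the 9 tested probe sets of this set, 3 rose and 0 fell, where 0.818% of all tested probe sets rose and 0.362% fell. Without TGFb2 replicate 1 none of the 3 passed (limma adjusted p between 0.0857 and 0.149), nor without PBS replicate 2 (0.0545 to 0.146). Only C1qb passed without PBS replicate 1, and C1qa and C1qb passed without TGFb2 replicate 2. The 3 differences were positive under each of the 13 alternatives, between 0.94 and 1.89 on the log2 scale. With groups that do not overlap, only the changes of normalization could have turned a sign. The changes of filter, variance model and replicate block leave the difference itself as it was.

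**Figure D2:**
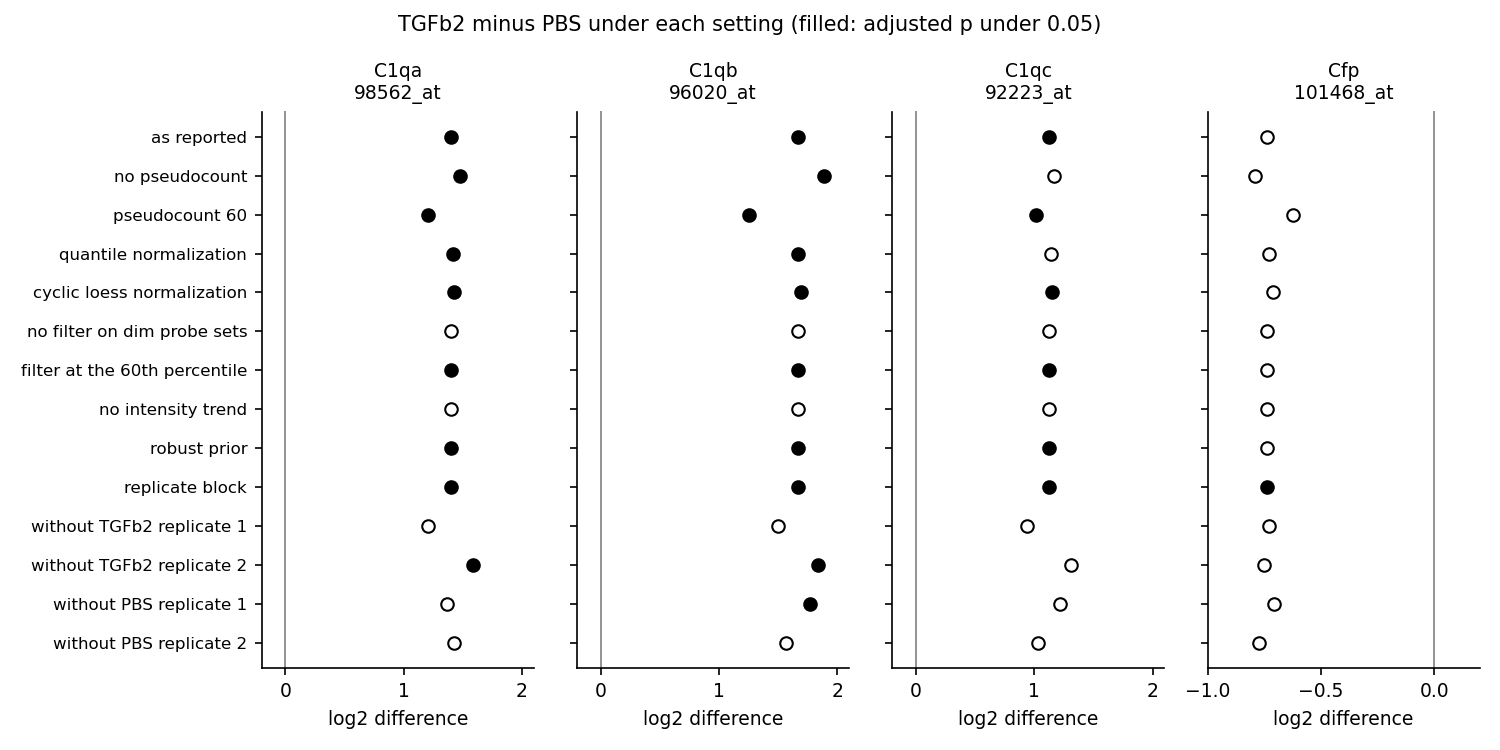
Log2 difference, TGFb2 minus PBS (horizontal axis), of the C1q chains and Cfp under the reported setting and each of 13 alternatives, filled where limma's adjusted p was under 0.05. The C1q differences stay between 0.94 and 1.89 and those of Cfp between -0.79 and -0.62, while the fill, and so the call, changes between settings.

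The proteases C2 and Cfb did not pass in any probe set. C2 (103673_at) had signals of 86.6 and 68.1 with TGFb2 and 71.9 and 43.8 with PBS, and the groups overlapped. Its log2 difference was 0.36 ± 0.25 (SE, limma adjusted p = 0.65), with a 95% interval of -0.23 to 0.95. The other C2 probe set, 162366_r_at, had signals of 20.2 and 4.6 with TGFb2 and 5.30 and 5.20 with PBS, lay below the level for testing and was not tested. Cfb and C2 are close neighbours on chromosome 17, with 1 other gene starting between them. Its probe set 100609_at had signals of 43.0 and 34.7 with TGFb2 and 17 and 30.9 with PBS, without overlap, for a log2 difference of 0.49 ± 0.29 (SE, limma adjusted p = 0.59). Its other probe set, 161365_r_at, had signals of 23.6 and 42.6 with TGFb2 and 34.8 and 29.7 with PBS, for a log2 difference of -0.00088 ± 0.29 (SE, limma adjusted p = 1.00). Both Cfb probe sets lay near the level for testing, and their 95% intervals, -0.19 to 1.16 and -0.68 to 0.68, were wide beside that of C1qb 96020_at.

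Cfp, which encodes properdin, had signals of 170.5 and 173.5 with TGFb2 and 304.5 and 290.0 with PBS. The arrays of each group lay close together and the groups did not overlap, with means of 172 ± 2.12 with TGFb2 and 297 ± 10.3 with PBS (SD, n = 2 arrays each), a ratio of 0.579. The log2 difference of -0.74 ± 0.16 (SE, 95% interval -1.12 to -0.36) did not pass over all probe sets (limma adjusted p = 0.104, unadjusted p = 0.00226). It ranked 152nd from the lowest of the 7453 tested.

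Serping1, the C1 inhibitor, had signals of 121 and 55.5 with TGFb2 and 119 and 90.8 with PBS. The TGFb2 arrays lay on both sides of the PBS arrays. The log2 difference was -0.28 ± 0.32 (SE, limma adjusted p = 0.78), with a 95% interval of -1.02 to 0.45. Over the 9 tested probe sets the median log2 difference was 0.36, beside -0.00082 over all tested probe sets. Groups did not overlap for 5 of the 9, where 42.8% of all tested probe sets had no overlap, and nothing is read from that count.

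**Figure D3:**
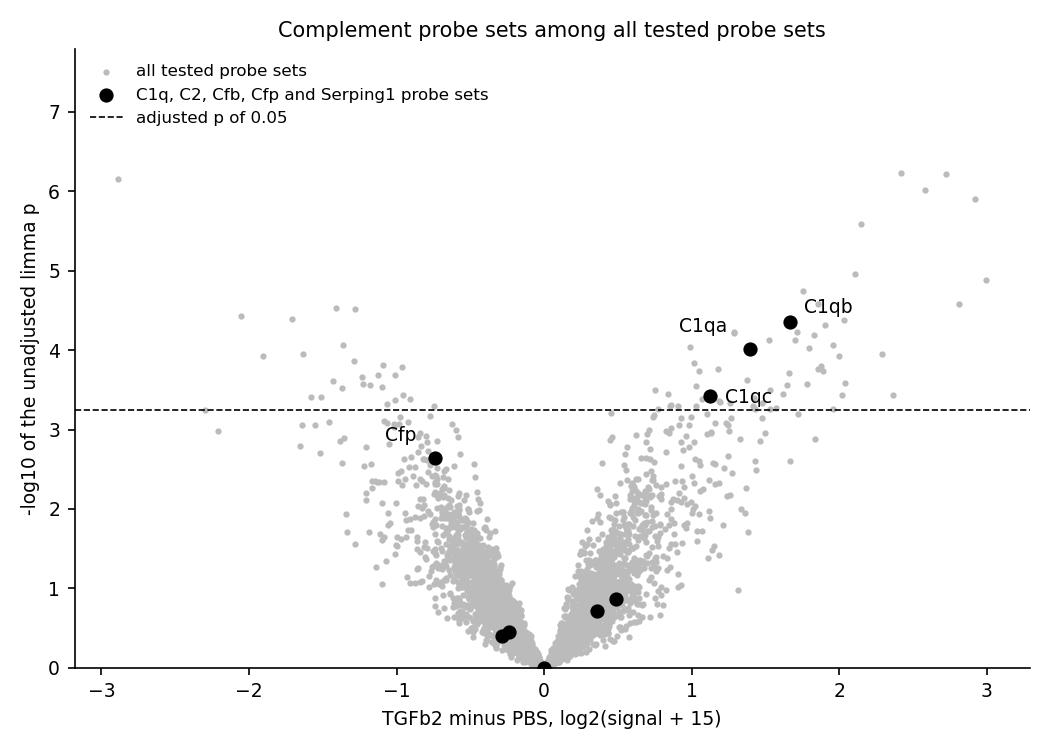
Log2 difference, TGFb2 minus PBS (horizontal), against -log10 of the unadjusted limma p (vertical) for all 7453 tested probe sets in grey and the 9 tested of the C1q, C2, Cfb, Cfp and Serping1 set in black. The C1q chains lie above the dashed line at an adjusted p of 0.05, Cfp lies under it on the negative side, and the other 5 lie near the base.

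Of the other complement genes, 33 probe sets for 28 genes were on the array, and 16 probe sets for 13 genes were tested. With limma 0 rose and 0 fell, and 3 had an unadjusted p under 0.05, where 11.6% of all tested probe sets did. The median log2 difference of the 16 was 0.14. Of the initiators and their proteases, 3 probe sets were tested. The larger differences were both of C1ra, the C1r protease that C1q activates. Probe set 95414_i_at had signals of 84.4 and 55.5 with TGFb2 and 91.1 and 106.2 with PBS (log2 difference -0.44 ± 0.23 SE, limma adjusted p = 0.53). Probe set 95415_f_at had signals of 99.4 and 74.4 with TGFb2 and 85.3 and 126.7 with PBS (-0.24 ± 0.24 SE, limma adjusted p = 0.76). Neither C1ra probe set passed. All 4 probe sets of later components (Hc, C8g and C9) lay below the level for testing, with signals of 37.6 or less.

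Among regulators 6 probe sets were tested and the larger differences were both of Clu, whose product clusterin binds the membrane attack complex. Probe set 95286_at had signals of 105.1 and 71.1 with TGFb2 and 62.2 and 60.9 with PBS (log2 difference 0.41 ± 0.23 SE, limma adjusted p = 0.55). The dimmer 161294_f_at had 72.7 and 19.5 with TGFb2 and 36.6 and 10.1 with PBS, with array values that overlap and a log2 difference of 0.61 ± 0.50 (SE, limma adjusted p = 0.71). The remaining 4 tested probe sets, of Cd59a, Cd59b and Cr1l, had smaller log2 differences and did not pass.

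The 3 probe sets with an unadjusted p under 0.05 were all of receptors, of which 7 were tested. Itgam, the alpha chain of complement receptor 3, had signals of 671.8 and 757.6 with TGFb2 and 521 and 346.2 with PBS (log2 difference 0.73 ± 0.21 SE, limma adjusted p = 0.22). Itgb2, the beta chain of the same receptor, also chosen after its values were seen, had 2944 and 3278 with TGFb2 and 2948 and 3497 with PBS. Cd93, a membrane protein first described as a C1q receptor, had 601.2 and 546.9 with TGFb2 and 1042 and 755.3 with PBS (-0.62 ± 0.19 SE, limma adjusted p = 0.23). C3ar1, the C3a receptor, likewise singled out after its values were seen, had 1490.5 and 1837 with TGFb2 and 1268 and 1023 with PBS (0.53 ± 0.17 SE, limma adjusted p = 0.25). Groups did not overlap for Itgam, Cd93, C3ar1 and Lrp1, but none passed over all probe sets. Of the 16 tested probe sets of other complement genes, 6 were higher and 2 lower without overlap. Over all tested probe sets 42.8% had no overlap, and nothing is read from these counts.

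**Figure D4:**
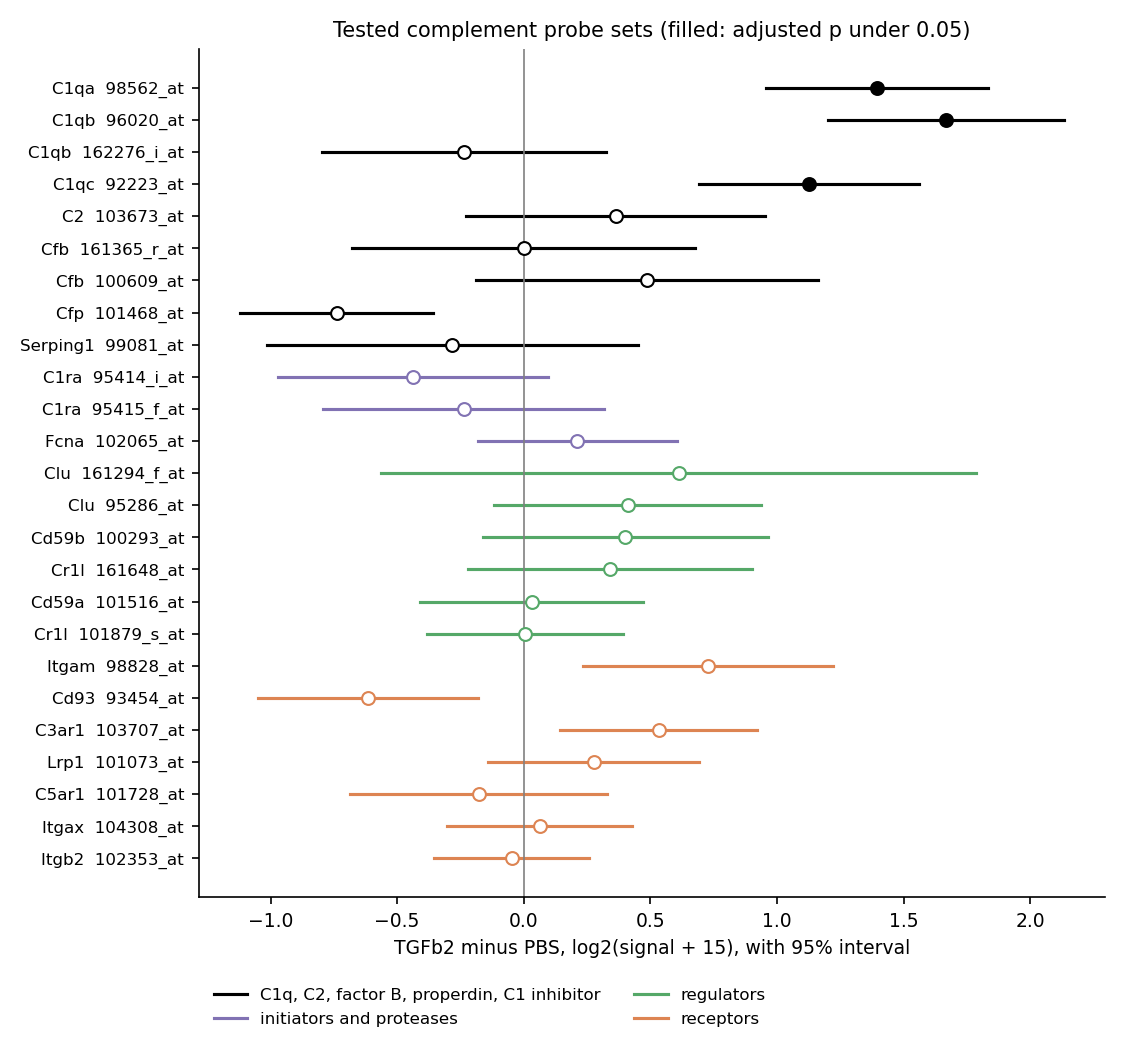
Log2 difference, TGFb2 minus PBS, with its 95% interval (limma) for the 9 tested probe sets of the set in black and the 16 other complement probe sets by role, filled where the adjusted p was under 0.05. Only C1qa, C1qb 96020_at and C1qc are filled. The intervals of Cfp and Cd93 lie below 0 and those of Itgam and C3ar1 above 0 without passing.

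The C1q chains were averaged into 1 profile over the 4 arrays, and 6713 other tested probe sets with 1 gene symbol were ranked by Euclidean distance from it after centring. The nearest 5 were Prm3 (162056_f_at, distance 0.092), Krt36 (161052_r_at, 0.156), Col6a3 (101110_at, 0.213), Zap70 (93662_s_at, 0.222) and Vcan (100019_at, 0.233). The chains themselves lay at 0.122 for C1qa, 0.280 for C1qb and 0.276 for C1qc. Zap70 encodes a T cell kinase, Vcan the matrix proteoglycan versican and Krt36 a keratin. Col6a3, a collagen VI chain, had signals of 221.6 and 182.1 with TGFb2 and 80.4 and 57.8 with PBS. All of the nearest 5 were brighter on TGFb2 replicate 1, as the chains were, an order that ranking on these same arrays favours. Prm3, Zap70 and Vcan had PBS signals of 13.6 or less, under the level for testing, and entered the ranking through the TGFb2 arrays. With 4 arrays in 2 groups, likeness mainly records a rise of like size.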

How the data were processed

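Biotin-labelled cRNA from 2 TGFb2 and 2 PBS samples was measured on Affymetrix arrays. The intensity values are MAS5 signals deposited by the authors, per the submitters' processing notes (no version named). Their 2% trimmed means were equal (150.1), so no scaling was added. Detection calls were not used here, and the number of arrays limits precision. Of 12488 probe sets, 66 controls were left out. Of the others 10833 carried 1 symbol, 396 several and 1193 none. For 10817 of the probe sets with 1 symbol the gene ID was found in the GRCm38.p6 table, with 0 symbols changed.

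Probe sets at or above the 40th percentile of mean log2(signal + 15), a signal of 24.0, were tested (7453) with limma 3.58.1 in R 4.3.3 (lmFit, eBayes with an intensity trend), two-sided, with Benjamini-Hochberg adjustment at 0.05. The fit was tested on simulated data with independent noise sized from this same fit, which cannot show how well the model suits these arrays. Probe sets named by rule were all those of the set and the 5 nearest in pattern. The rule also took the 2 with the largest absolute difference per role among other complement genes. Further probe sets were named outside this rule, among them those of C3ar1, Itgb2 and Lrp1 and dimmer probe sets of cell type markers. Members and lists were chosen with earlier results of these data known. Alternatives changed the pseudocount, normalization, filter, variance model, replicate block and arrays. Promoters came from RefSeq and matched 4 of 8 genes by symbol.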

Additional observations from a re-analysis of the deposited data

How the results depend on the processing

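Over all tested probe sets, 61 higher and 27 lower calls became 38 higher without a pseudocount, 5 higher and 1 lower without the filter on dim probe sets, and 15 higher and 1 lower without the intensity trend. Leaving out each array in turn gave 7 to 32 higher and 4 to 10 lower calls, on the assumption that the remaining array varies as the complete group does. The 3 C1q calls became 0 without the filter (adjusted p between 0.107 and 0.131) and 0 without the trend (0.0546 to 0.106), and 0 to 2 with an array left out. C1qc alone was lost without a pseudocount (limma adjusted p = 0.0511) and with quantile normalization (0.0507). All 3 chains passed under 5 of 13 alternatives, 1 or 2 under 4 and none under 4. The other complement probe sets had 0 calls with each array left out.

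Replicate numbers pair the arrays only by number. Deviations of same-numbered arrays from their group means correlated at 0.149 over tested probe sets, with 2 numbers. With the replicate number as a block, 178 probe sets were higher and 142 lower, Cfp fell (1 of the set, limma adjusted p = 0.0302), and among other complement genes 1 was higher (Itgam, 0.0407) and 1 lower (Cd93, 0.0425). The block changed no other call among the probe sets of the set, C1ra and Clu.

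Signs turned for 5 probe sets that had not passed. With an array left out, C1qb 162276_i_at ran from -0.50 to 0.031 and Serping1 from -0.76 to 0.19 (both positive without TGFb2 replicate 2), Clu 161294_f_at from -0.061 (without TGFb2 replicate 1) to 1.29, C1ra 95415_f_at from -0.49 to 0.012 (without PBS replicate 2) and Cfb 161365_r_at from -0.29 to 0.29. Cfb 161365_r_at was positive at 0.077 without PBS replicate 1 and at 0.29 without TGFb2 replicate 1, and was 0.0062 at a pseudocount of 60. Why calls and signs changed between settings was not tested. Dim probe sets such as those of Cfb and C2 limit what can be seen there.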
